A study of Mus musculus with 9 samples.

Results

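The genes described here are 10 members of the pathway through which the coactivator YAP and the TEAD transcription factors control transcription, measured in mouse colon: Yap1, Wwtr1, Tead1, Tead2, Tead4, Lats1, Lats2, Amotl2, Ajuba and Ankrd1. They were picked by gene symbol, with earlier results of these data known, and all 10 were present among the 35315 genes of the deposited expression table. The study asked how GsMTx4, a peptide that blocks cation channels opened by mechanical force such as Piezo1, alters gene expression in colitis caused by dextran sodium sulfate (DSS), a polymer that injures the colon lining when it is drunk. All mice were wild type, of the strain C57BL/6J and 8 weeks old, and total RNA of the colon was sequenced in 3 libraries per group. The Control group drank normal water, with no injection named for it. The DSS group drank 2.5% DSS for 7 days and received the solvent into a vein on days 2, 4 and 6. The GsMTx4 group drank the same DSS and received GsMTx4 at 10 mg/kg into a vein on the same days. DSS against Control therefore differs in both the DSS and the injections, and GsMTx4 against DSS differs in the peptide alone. Whether each library is a different mouse is not stated, so p-values here rest on the spread between libraries, which may be technical.

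In the Hippo pathway, a cascade of kinases ends in LATS1 and LATS2, which phosphorylate YAP and its relative TAZ (the product of Wwtr1) and so hold them out of the nucleus. When the kinases are less active, YAP and TAZ enter the nucleus and bind TEAD factors, which have DNA-binding domains that the coactivators lack. Cell contact, matrix stiffness and stretch act on this balance, and in the intestine YAP is known for its part in regrowth of the epithelium after injury. Lats2, Amotl2, Ajuba and Ankrd1 are also known as genes whose transcription YAP and TEAD raise in other tissues. Most control of YAP and TAZ is on the protein, which RNA levels do not show.

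Levels are given in FPKM, fragments scaled to gene length and library size, so that levels of different genes can be compared. Fold changes are on the log2(FPKM + 1) scale, which understates the change of low genes. Passing means an adjusted p under 0.05 in limma, with Benjamini-Hochberg adjustment over 14360 tested genes, which are those that reached an FPKM of 1 in 3 or more libraries. Of the 10 genes, 9 were tested, and Ankrd1 was too low. The absolute depth of the libraries is unknown. From the steps between the lowest values, depth relative to Control 1 was 0.77 to 1.09, lowest in GsMTx4 2 and GsMTx4 3. DSS 2 and GsMTx4 3 stood apart by transcript length: among genes with at least 5116 exonic bases, the median shift from each gene's mean was -0.261 (log2) in DSS 2 and -0.21 in GsMTx4 3, against -0.024 to 0.127 in the other 7. Yap1, Tead1, Lats1, Lats2 and Amotl2 are in that length class, and results for them are also given without these libraries. The tissue matched its label by epithelial markers, which summed to between 4600 and 6320 FPKM in every library, against sums of 0.409 to 7.13 for 7 skeletal and cardiac muscle markers (both ends of the range in DSS, in DSS 2 and DSS 3) and 0.131 to 1.14 for 4 mesothelial markers. The highest single marker of these was Acta1, at 5.01 in DSS 3, while Myh1, Myh2, Myh6 and Lrrn4 were each under 0.1 in every library. Liver markers summed to 20.0 to 25.7 in Control, 2.56 to 6.22 in DSS and 29.6 to 45.6 in GsMTx4. Ttr made up most of the Control sum, at means of 21.5, 3.43 and 16.8 in Control, DSS and GsMTx4. Means were 0.933, 0.221 and 14.1 for Alb, 0.0261, 0.0906 and 4.13 for Apoa1, and 0, 0.281 and 2.84 for Serpina1c. In GsMTx4 against Control, 3 of these 4 markers passed, all higher, where 0.188% of all tested genes did. The source of these transcripts was not tested. In bulk tissue, fewer cells of a type and less RNA per cell cannot be told apart, and this holds for each result below.

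TEAD factors recognise a core of 6 bases, GGAATG, read as CATTCC on the other strand. The promoters of the 10 genes are shown first because the members include both TEAD genes and known TEAD targets. In the RefSeq promoter table of GRCm38.p6 (250 bases before to 50 bases after each start), 8 of the 10 genes had an entry, and both strands were searched. The core was in 6 of the 8 (Yap1, Wwtr1, Lats2, Amotl2, Ajuba and Ankrd1). Over the whole table it was in 14.7% of 32851 promoters and, counted per gene over any of its promoters, in 16.6% of 27025 genes. The windows below are written 5′ to 3′ along the gene's strand, with the core in capitals.
Yap1, chr9:8004705-8004764, minus strand: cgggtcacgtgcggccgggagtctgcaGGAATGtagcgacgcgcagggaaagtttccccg
Wwtr1, chr3:57576014-57576073, minus strand: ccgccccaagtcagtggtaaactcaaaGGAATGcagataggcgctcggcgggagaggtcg
Lats2, chr14:57746102-57746131, minus strand: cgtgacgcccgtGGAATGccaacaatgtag
Amotl2, chr9:102717727-102717756, plus strand: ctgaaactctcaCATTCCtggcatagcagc
Ajuba, chr14:54577793-54577874, minus strand: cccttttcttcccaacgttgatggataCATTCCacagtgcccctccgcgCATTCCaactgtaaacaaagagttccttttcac
Ankrd1, upstream copy, chr19:36120037-36120066, minus strand: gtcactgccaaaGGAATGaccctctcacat
Ankrd1, downstream copy, chr19:36119950-36119979, minus strand: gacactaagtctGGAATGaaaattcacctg

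Ajuba and Ankrd1 each held the core at 2 positions, -186 and -164 for Ajuba and -210 and -123 for Ankrd1, counted from the transcription start, the first transcribed base being 1. The copy of Yap1 lay at -141 and that of Amotl2 at -65. These positions count from the RefSeq start alone. The windows shown for Ankrd1 and Amotl2 overlap exons of these genes in GENCODE annotation, so they may lie in transcribed sequence. The bases after the RefSeq start of Ajuba were not found in its GENCODE transcripts. Wwtr1 has a pair of overlapping promoters that share 1 copy, at -170 from the downstream start and -136 from the upstream one. Lats2 has separate starts, and the core began at base 5 of the transcript of the upstream start and not in the window of the downstream start. No core was in the windows of Lats1 and Tead2. The letters TGANTCA, a core bound by AP-1 factors that often act beside TEAD, were in 0 of the 8 genes' windows, against 7.81% of promoters and 8.97% of genes in the table. A match describes the letters in this window and says nothing of binding.

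**Figure D1:**
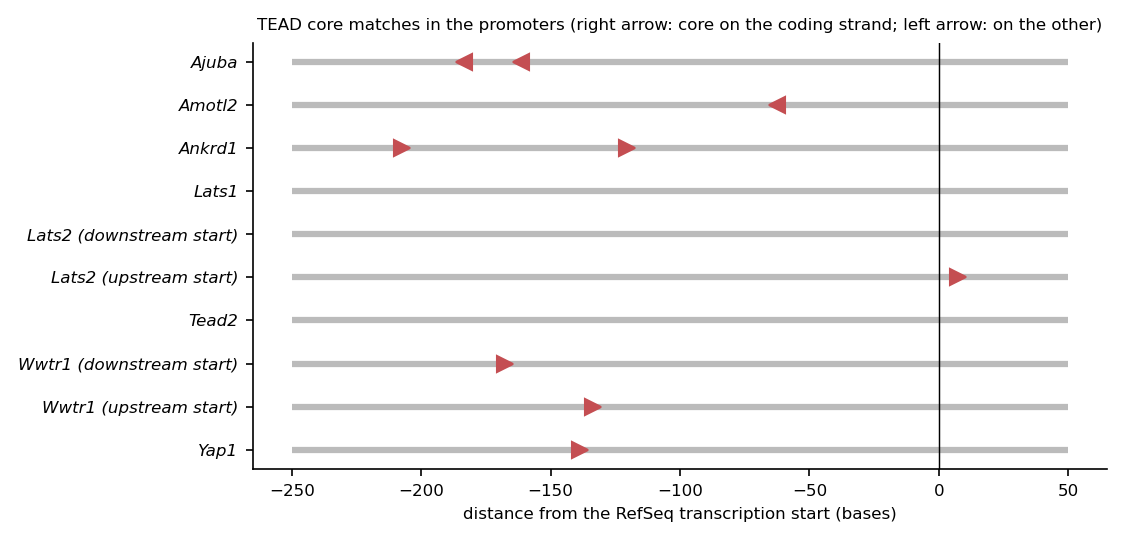
Position of the core GGAATG in the RefSeq promoters of 8 of the genes; the horizontal axis is the distance from the transcription start in bases, and each grey bar is 1 promoter from 250 bases before to 50 after the start. Right-pointing arrows mark the core on the coding strand and left-pointing ones on the other; Ajuba and Ankrd1 have 2 each, and Lats1 and Tead2 have none.

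Among the coactivators, Yap1 was the higher at baseline and did not pass in any comparison, while the mean level of Wwtr1 was higher in DSS with wide spread. Yap1 (ENSMUSG00000053110, chr9:7931999-8004596, minus strand, GRCm38) was at 7.45, 7.94 and 8.08 FPKM in Control, 6.32, 5.70 and 8.76 in DSS, and 7.30, 7.99 and 5.60 in GsMTx4. The ranges overlapped in all 3 pairs of groups, and the lowest libraries of the injured groups were DSS 2 and GsMTx4 3, those with low values for long transcripts. The log2 fold change was -0.17 ± 0.17 (SE; 95% confidence interval -0.56 to 0.22, adjusted p = 0.496) in DSS against Control and 0.01 ± 0.17 (-0.38 to 0.40, adjusted p = 0.968) in GsMTx4 against DSS. Without DSS 2 and GsMTx4 3, these were -0.06 and 0.03.

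Wwtr1 (ENSMUSG00000027803, chr3:57455649-57575910, minus strand), which encodes TAZ, was at 3.15, 3.79 and 4.35 FPKM in Control, 3.81, 5.88 and 11.4 in DSS, and 3.48, 3.51 and 3.20 in GsMTx4. DSS 3 was far above the other libraries, DSS 1 lay within the Control range, and every GsMTx4 library lay below every DSS library. The fold change was 0.65 ± 0.29 (-0.01 to 1.31, adjusted p = 0.148) in DSS against Control and -0.76 ± 0.29 (-1.42 to -0.10, adjusted p = 0.119) in GsMTx4 against DSS, so neither passed. Of the 9 fits that left out 1 library, 1 passed in each comparison, that without DSS 1 (0.97, adjusted p = 0.0369, and -1.07, adjusted p = 0.0341). Over these 9 fits the fold changes were 0.28 to 0.97 and -1.07 to -0.39, with adjusted p of up to 0.322 and 0.231. The share of Wwtr1 in the summed FPKM of the pair was 32.3 ± 2.66% (SD, n = 3) in Control, 48.3 ± 9.72% in DSS and 33.1 ± 3.0% in GsMTx4. Scaling each library by a single factor cannot alter this share, but quantile normalization can. Yap1 is in the longest length class and Wwtr1 is not, so the share is open to the length difference of DSS 2 and GsMTx4 3. In the other libraries of those groups it was 37.6 and 56.6% (DSS 1 and 3) and 32.3 and 30.5% (GsMTx4 1 and 2). The lowest DSS share (37.6%) was above the highest Control (35.0%) and GsMTx4 (36.4%) shares. The sum of 6 fibroblast markers was also highest in DSS 3, at 123, 185 and 266 FPKM in DSS 1, 2 and 3, against 122 to 140 in Control and 105 to 131 in GsMTx4. Of these 6 markers, 3 fell in GsMTx4 against DSS, and 0 rose in DSS against Control in limma, with 2 higher at an unadjusted p under 0.05. The sum of 7 smooth muscle markers was 208, 567 and 827 in DSS 1, 2 and 3, against 426 to 694 in Control and 540 to 707 in GsMTx4. The sum of 4 neutrophil markers was 55.3, 81.6 and 274 in DSS 1, 2 and 3, against 1.63 to 2.08 in Control and 3.75 to 42.1 in GsMTx4. All 3 sums had the order of Wwtr1 within DSS. Within Control only the smooth muscle sum had it, and within GsMTx4 none of them did. Of the fibroblast markers, Pdgfra, Col1a1 and Col1a2 were lower in DSS 2 than in DSS 1, and Col3a1, Dcn and Lum were higher. The part of these cell types in the values of Wwtr1 was not tested.

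The TEAD genes did not move together: Tead2 fell in DSS, the mean of Tead4 was higher in DSS without passing, and Tead1 differed more within groups than between them. Tead2 (ENSMUSG00000030796, chr7:45215753-45233644, plus strand) encodes a TEAD factor of early embryos that is low in most adult tissues. It was at 1.29, 1.27 and 1.22 FPKM in Control, 0.435, 0.515 and 0.607 in DSS, and 0.525, 1.25 and 0.705 in GsMTx4. Every DSS library was below every Control library, and the GsMTx4 libraries spanned most of the distance between them. The fold change in DSS against Control was -0.58 ± 0.17 (-0.95 to -0.20, adjusted p = 0.0451), the Control mean being 2.43 times the DSS mean. This call ended without any 1 of the 6 libraries compared (adjusted p = 0.118, 0.132 and 0.113 without Control 1, 2 and 3, and 0.106, 0.0927 and 0.0692 without DSS 1, 2 and 3), while the fold change stayed between -0.62 and -0.54. It held in 5 of 18 alternative settings. Tead2 entered the test through the 3 Control libraries and GsMTx4 2, and with no filter on low values its adjusted p was 0.0897.

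In GsMTx4 against DSS, Tead2 had a fold change of 0.25 ± 0.17 (-0.13 to 0.63, adjusted p = 0.354). Tead2 overlaps Cd37, a leukocyte gene on the opposite strand, and whether the counting used strand is not given in the sources used here. Cd37 was at 6.43, 3.33 and 3.86 FPKM in Control, 24.4, 5.05 and 10.2 in DSS, and 5.82, 3.86 and 4.49 in GsMTx4. Cd37 had its highest group mean in DSS, where the mean of Tead2 was lowest. The DSS range of Cd37 overlapped those of both other groups. Whether reads of Cd37 affected the values of Tead2, in either direction, was not tested.

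Tead4 (ENSMUSG00000030353, chr6:128224288-128300823, minus strand), a factor also known from the first lineage choice of the embryo, was at 1.58, 1.42 and 1.62 FPKM in Control, 2.30, 3.67 and 2.54 in DSS, and 2.06, 1.62 and 0.818 in GsMTx4. The DSS libraries lay above all libraries of both other groups. The fold change was 0.58 ± 0.21 (0.10 to 1.06, adjusted p = 0.0876) in DSS against Control and -0.64 ± 0.21 (-1.11 to -0.16, adjusted p = 0.0811) in GsMTx4 against DSS, so neither passed. Of the 9 fits that left out 1 library, 1 passed in each comparison. The first passed without GsMTx4 3 (0.58, adjusted p = 0.0392) and the second without GsMTx4 1 (-0.80, adjusted p = 0.0456). Over these 9 fits the fold changes were 0.43 to 0.68 and -0.80 to -0.42, with adjusted p of up to 0.23 and 0.193.

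Tead1 (ENSMUSG00000055320, chr7:112679318-112906807, plus strand) encodes a TEAD factor that many adult tissues express. It was at 0.333, 2.46 and 0.389 FPKM in Control, 2.77, 1.82 and 0.408 in DSS, and 0.298, 0.260 and 1.30 in GsMTx4. Values of 0.408 or less were found in 5 libraries of all 3 groups, and values of 1.30 or more in the other 4, again from all 3 groups. The fold change was 0.41 ± 0.46 (-0.64 to 1.45, adjusted p = 0.547) in DSS against Control and -0.66 ± 0.46 (-1.71 to 0.38, adjusted p = 0.369) in GsMTx4 against DSS. The SE was the highest of the 9 tested genes. Without DSS 2 and GsMTx4 3 the fold changes were 0.31 (adjusted p = 0.707) and -0.85 (adjusted p = 0.386).

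Tead3, the remaining member of the family, was described from the list of TEAD partners. It had the highest mean of the 4 genes in each group, at 4.28 ± 0.67, 4.05 ± 0.295 and 3.50 ± 1.11 FPKM (SD, n = 3) in Control, DSS and GsMTx4. Its fold change was -0.06 (adjusted p = 0.842) in DSS against Control and -0.19 (adjusted p = 0.516) in GsMTx4 against DSS. Of the summed FPKM of the 4 Tead genes, Tead3 made up 39.0 to 60.4% over the 9 libraries. The share of Tead2 was 14.6 to 16.8% in Control, 4.4 to 8.11% in DSS and 9.45 to 15.9% in GsMTx4, with no overlap between DSS and the others. The share of Tead4 was 16.4 to 20.6% in Control, 23.2 to 37.2% in DSS and 13.9 to 37.0% in GsMTx4, where the last range spanned nearly all of the others. The sum of all 4 was 7.66 to 8.69 FPKM in Control, 7.48 to 9.89 in DSS and 5.55 to 7.89 in GsMTx4.

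**Figure D2:**
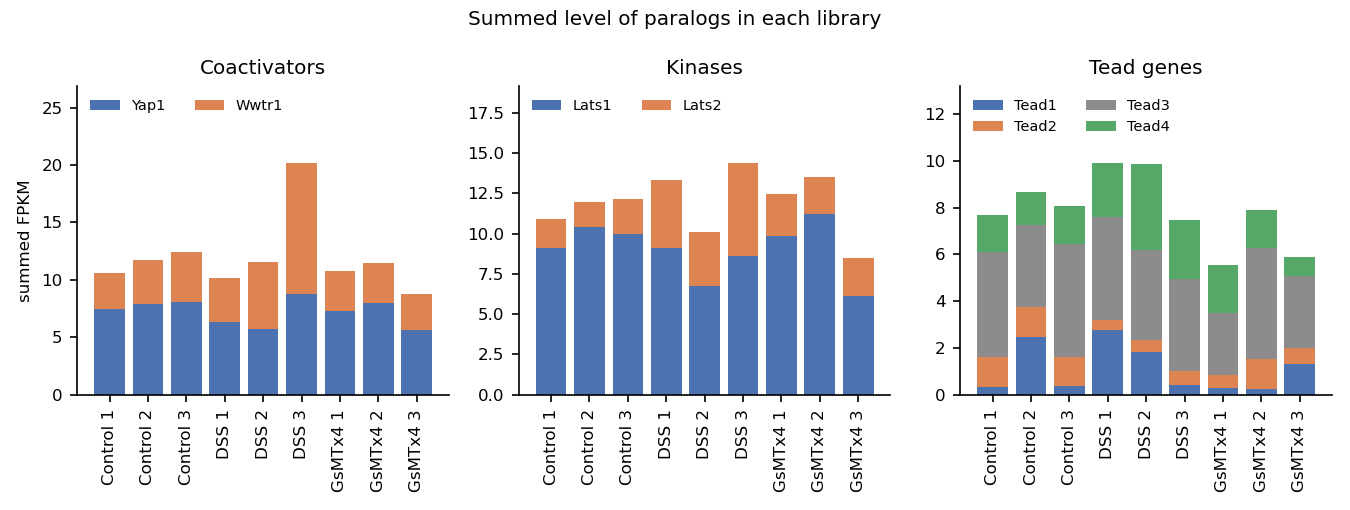
Stacked bars of FPKM in each of the 9 libraries for the coactivators, the LATS kinases and the 4 Tead genes; the vertical axis is summed FPKM on a linear scale, which starts at 0 and differs between panels. The Wwtr1 part of the bar is largest in DSS 3, and the Lats2 part is 31.8 to 40.0% of the bar in DSS against 13.3 to 17.8% in Control.

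The kinase gene Lats2 gave the clearest difference among the 10 genes, and its partner Lats1 did not pass in any comparison. Lats2 (ENSMUSG00000021959, chr14:57689662-57758388, minus strand) was at 1.81, 1.59 and 2.16 FPKM in Control, 4.24, 3.36 and 5.74 in DSS, and 2.61, 2.33 and 2.41 in GsMTx4. The groups did not overlap: all GsMTx4 libraries lay above all Control libraries and below all DSS libraries. Lats2 rose in DSS against Control by 0.91 ± 0.17 (0.53 to 1.30, adjusted p = 0.00922), a ratio of means of 2.4. The call held in each of the 18 alternative settings in which Lats2 was tested, with fold changes of 0.75 to 1.23 and adjusted p of 0.00249 to 0.0464, and without DSS 2 and GsMTx4 3 it was 1.06 (adjusted p = 0.00919).

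Lats2 fell in GsMTx4 against DSS by 0.64 ± 0.17 on the log2 scale (fold change -0.64, -1.02 to -0.25, adjusted p = 0.0434), the DSS mean being 1.82 times the GsMTx4 mean. Of the 9 fits that left out 1 library, 1 kept this call, that without DSS 2 (adjusted p = 0.0254). The adjusted p was 0.0692, 0.0709 and 0.0666 without Control 1, 2 and 3, 0.0858 and 0.102 without DSS 1 and 3, and 0.0622, 0.126 and 0.0823 without GsMTx4 1, 2 and 3. The fold change over these fits was -0.79 to -0.47, and the call held in 6 of all 18 alternative settings. Without both DSS 2 and GsMTx4 3 it was -0.78 (adjusted p = 0.0412). In GsMTx4 against Control the fold change was 0.28 ± 0.17 (-0.11 to 0.67, adjusted p = 0.616). Lats2 overlaps Gm49361, a protein-coding gene model on the same strand that was not analysed here, so how reads were divided between them is not known.

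Lats1 (ENSMUSG00000040021, chr10:7681214-7716460, plus strand) was at 9.08, 10.4 and 9.97 FPKM in Control, 9.09, 6.74 and 8.63 in DSS, and 9.86, 11.2 and 6.10 in GsMTx4. As for Yap1, the lowest values of the 9 were in DSS 2 and GsMTx4 3. The fold change was -0.25 ± 0.21 (-0.71 to 0.22, adjusted p = 0.409) in DSS against Control and 0.11 ± 0.21 (-0.35 to 0.57, adjusted p = 0.756) in GsMTx4 against DSS, or -0.13 and 0.23 without those libraries. Lats2 was the lower of the kinase genes in all 9 libraries. Its share of their summed FPKM was 15.9 ± 2.34% (SD, n = 3) in Control, 35.0 ± 4.34% in DSS and 22.1 ± 5.68% in GsMTx4. The DSS shares did not overlap those of either other group. The sum of both kinase genes was 10.9 to 12.1 FPKM in Control, 10.1 to 14.4 in DSS and 8.51 to 13.6 in GsMTx4, with overlap throughout.

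Lats2 is widely expressed, and markers of other cell types differed between the same groups. The sum of 5 endothelial markers was 8.38, 8.91 and 12.2 FPKM in Control, 23.7, 13.5 and 27.0 in DSS, and 15.6, 10.8 and 9.03 in GsMTx4. Within DSS it was ordered as Lats2 was (DSS 3, DSS 1, DSS 2), and within Control and GsMTx4 it was not. Of these 5 markers, 2 rose in DSS against Control, and 0 fell in GsMTx4 against DSS in limma, with 2 lower at an unadjusted p under 0.05. The sum of 5 leukocyte markers was 251 to 391 in Control, 679 to 733 in DSS and 356 to 462 in GsMTx4; 3 of the 5 rose in DSS against Control and 3 fell in GsMTx4 against DSS. The fibroblast, smooth muscle and neutrophil sums are given with Wwtr1. Their part in the values of Lats2 and of Amotl2 was not tested.

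Of the scaffold genes, Amotl2 fell in GsMTx4 against DSS and Ajuba did not pass in any comparison. Amotl2 (ENSMUSG00000032531, chr9:102716672-102733418, plus strand) encodes an angiomotin, a junction protein that binds YAP and favours its phosphorylation by LATS kinases. It was at 1.99, 1.92 and 2.47 FPKM in Control, 3.04, 3.81 and 5.65 in DSS, and 2.78, 1.29 and 0.863 in GsMTx4. DSS lay above both other groups without overlap, and GsMTx4 1 lay above all Control libraries while GsMTx4 2 and 3 lay below them. The fold change was -1.0 ± 0.27 (-1.62 to -0.39, adjusted p = 0.044) in GsMTx4 against DSS, the DSS mean being 2.54 times the GsMTx4 mean. In DSS against Control it was 0.70 ± 0.27 (0.08 to 1.31, adjusted p = 0.105), which did not pass.

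The call for Amotl2 held without DSS 1 or without GsMTx4 1 and ended without any other 1 library. The adjusted p was then 0.0673, 0.0724 and 0.0683 without Control 1, 2 and 3, 0.0815 and 0.12 without DSS 2 and 3, and 0.135 and 0.101 without GsMTx4 2 and 3. The fold change over the 9 fits was -1.29 to -0.78, and the call held in 5 of all 18 alternative settings. Without both DSS 2 and GsMTx4 3 it was -0.82 (adjusted p = 0.145). Within DSS, the fibroblast, smooth muscle and neutrophil sums given for Wwtr1 had the order of Amotl2, with DSS 3 highest. The endothelial sum was also highest in DSS 3 but was lowest in DSS 2, where Amotl2 was lowest in DSS 1. Within Control, none of these sums was ordered as Amotl2 was. Within GsMTx4, the neutrophil and endothelial sums were, and the fibroblast and smooth muscle sums were not.

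Ajuba (ENSMUSG00000022178, chr14:54567472-54577558, minus strand) encodes a LIM-domain protein that binds LATS kinases at junctions and restrains them. It was at 0.893, 1.01 and 1.59 FPKM in Control, 0.867, 0.517 and 1.17 in DSS, and 0.792, 1.19 and 0.873 in GsMTx4, with overlap between all groups. The fold change was -0.23 ± 0.19 (-0.65 to 0.20, adjusted p = 0.413) in DSS against Control and 0.08 ± 0.19 (-0.34 to 0.51, adjusted p = 0.798) in GsMTx4 against DSS.

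Ankrd1 (ENSMUSG00000024803, chr19:36111961-36120099, minus strand), the classical YAP and TEAD target that encodes a muscle ankyrin-repeat protein, was near the floor of the table. It was listed at 0.053, 0 and 0 FPKM in Control, 0.0668, 0.768 and 0.21 in DSS, and 0.15, 0.0454 and 0.0803 in GsMTx4. All DSS values were above all Control values, although DSS 1 exceeded Control 1 by little and lay below GsMTx4 1 and 3. With no filter on low values, the fold change was 0.37 ± 0.16 (adjusted p = 0.244) in DSS against Control and -0.27 ± 0.16 (adjusted p = 0.448) in GsMTx4 against DSS. Neither passed, with unadjusted p of 0.0505 and 0.132 in the same limma fit. No ratio is given because Control libraries were listed at 0.

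**Figure D3:**
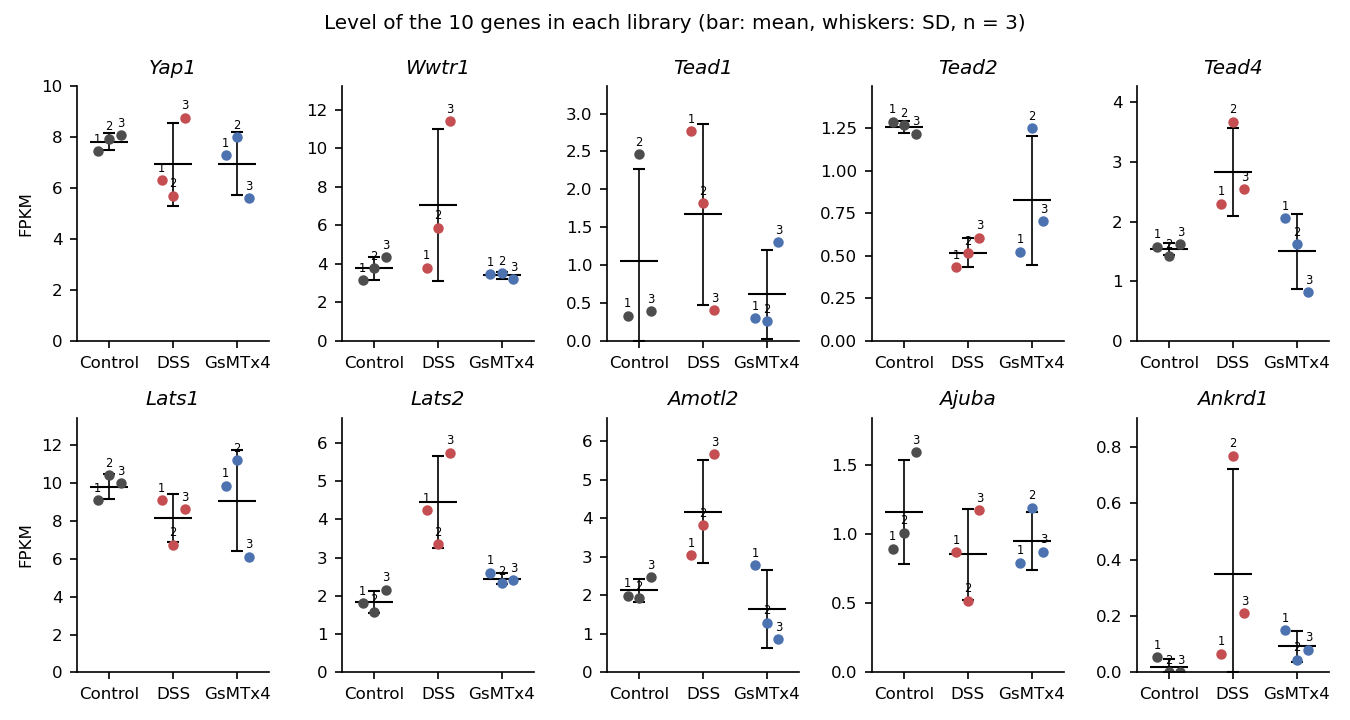
FPKM of the 10 genes in each library (points, with the replicate number) by group on the horizontal axis; bars are group means and whiskers the SD (n = 3), cut at 0 for Tead1 and Ankrd1, and the vertical scales differ between genes. Lats2 is at 3.36 to 5.74 in DSS, above 1.59 to 2.16 in Control and 2.33 to 2.61 in GsMTx4, while Tead1 has high and low libraries in every group.

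Counted together in DSS against Control, 1 of the 9 tested genes rose (Lats2) and 1 fell (Tead2). Over all 14360 tested genes, 17.1% passed in that comparison, 6.41% higher and 10.7% lower. The groups did not overlap for 4 of the 9, 3 higher in DSS (Tead4, Lats2 and Amotl2) and 1 lower (Tead2), against 47.1% of all tested genes, 13.5% higher and 33.6% lower. An unadjusted p under 0.05 was found for 4 of the 9 genes and for 34.9% of all. The median fold change was 0.41 over the 9 genes and -0.17 over all tested genes. The median of the 9 is the value of Tead1, which had an SE of 0.46 and an interval of -0.64 to 1.45. Fold changes were negative for Yap1, Tead2, Lats1 and Ajuba. The share of called genes that were higher depended on scaling, at 37.4% as deposited, 27.5% after rescaling to TPM, 58.6% with median-of-ratios scaling and 50.1% with quantile normalization. These scalings moved the median of all genes by -0.106, 0.143 and 0.111. Lats2 kept its call under each of the 3, and Tead2 under TPM rescaling only.

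In GsMTx4 against DSS, 2 of the 9 tested genes fell (Lats2 and Amotl2) and 0 rose, with 4 at an unadjusted p under 0.05. Over all tested genes, 12.3% passed, 6.66% higher and 5.62% lower, and 30.1% had an unadjusted p under 0.05. The groups did not overlap for 4 of the 9 genes (Wwtr1, Tead4, Lats2 and Amotl2), all lower in GsMTx4, against 30.3% of all tested genes, 12.8% lower. The median fold change was -0.64 over the 9 genes and 0.07 over all tested genes. The comparison shares its DSS libraries with DSS against Control, so an unusual DSS library moves a gene in opposite directions in both.

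In GsMTx4 against Control, 0 of the 9 genes passed in limma and 0 had an unadjusted p under 0.05, where 0.237% of all tested genes passed (0.188% higher and 0.0487% lower) and 10.1% had an unadjusted p under 0.05. Lats2 was the 1 gene whose groups did not overlap, higher in GsMTx4, against 19.6% of all tested genes, 5.0% higher. The fold change of Tead2 was -0.33 ± 0.17 (-0.70 to 0.05, adjusted p = 0.553) and that of Amotl2 was -0.30 ± 0.27 (-0.92 to 0.31, adjusted p = 0.743). The other tested genes except Lats2 (0.28) lay between -0.26 and -0.06. These intervals leave room for changes in either direction.

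**Figure D4:**
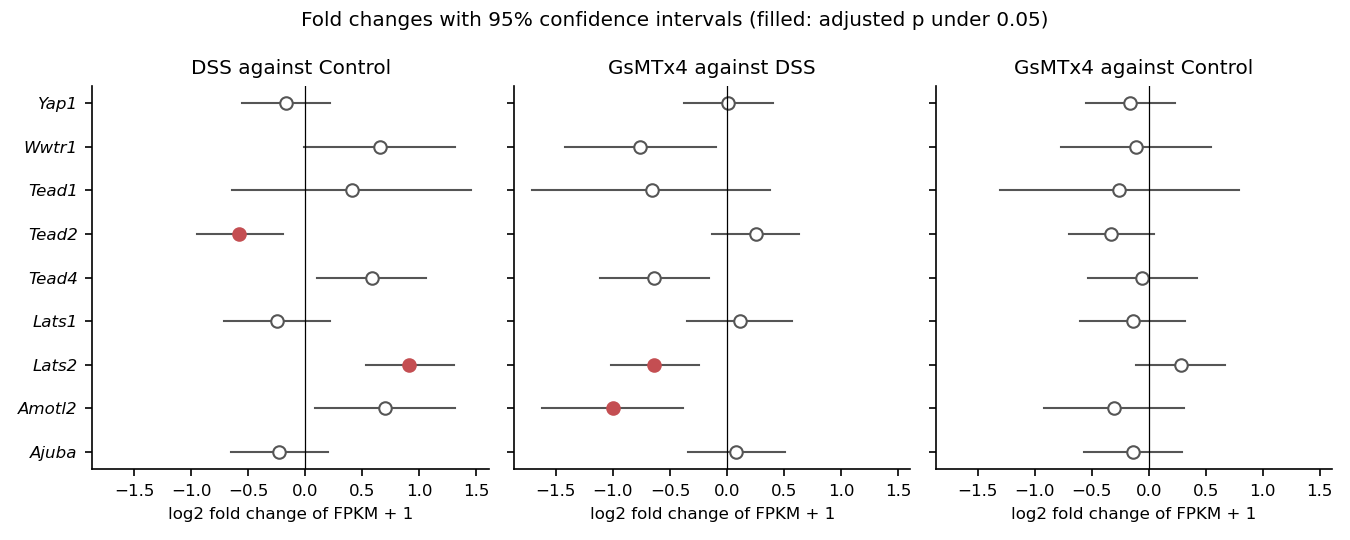
Fold changes of the 9 tested genes on the log2(FPKM + 1) scale (horizontal axis) in the 3 comparisons, with 95% confidence intervals from limma; filled points have an adjusted p under 0.05. Lats2 is at 0.91 in DSS against Control and -0.64 in GsMTx4 against DSS, and no point is filled in GsMTx4 against Control.

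The other genes of the pathway were taken from 5 lists with 74 distinct genes, of which 66 were tested. In DSS against Control, 10 rose and 3 fell (19.7% passed, against 17.1% of all tested genes, 6.41% higher and 10.7% lower). Of the 10 that rose, 7 were in the list of repair genes and 3 in that of YAP and TAZ targets. In GsMTx4 against DSS, 3 rose and 7 fell (15.2% against 12.3%, 6.66% higher and 5.62% lower), and 5 of the 7 that fell were repair genes. In GsMTx4 against Control, 0 passed in limma, and 4 had an unadjusted p under 0.05 (Limd1, Asap1, Anxa1 and Plaur, with fold changes of -0.51, 0.36, 0.70 and 0.51 and adjusted p of 0.447, 0.486, 0.30 and 0.452).

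Among 17 other Hippo kinases and scaffolds, all tested, 1 fell in DSS against Control, and 1 rose and 1 fell in GsMTx4 against DSS. Of all tested genes, 10.7% fell in the first comparison, and 6.66% rose and 5.62% fell in the second. The gene that moved in both was Stk38l, which encodes NDR2, a kinase close to LATS. It was at 15.5 to 16.2 FPKM in Control, 9.22 to 10.4 in DSS and 18.1 to 18.8 in GsMTx4, with narrow spread in each group. It fell in DSS against Control (-0.62 ± 0.11, adjusted p = 0.00625) and rose in GsMTx4 against DSS (0.83 ± 0.11, adjusted p = 0.00315), and both calls held in all 19 alternative settings. Lats2 moved the opposite way in both comparisons. Rassf5, which encodes a binding partner of the upstream kinase MST1, was at 3.67 to 4.57 in Control, 4.72 to 8.58 in DSS and 2.93 to 3.70 in GsMTx4. It fell in GsMTx4 against DSS (-0.83 ± 0.19, adjusted p = 0.0272), a call that ended without Control 2, DSS 1, DSS 3 or GsMTx4 2 (adjusted p = 0.0509, 0.0713, 0.0761 and 0.0982). In DSS against Control its fold change was 0.61 (adjusted p = 0.0578). It passed there in 1 of the 9 fits that left out 1 library, that without DSS 2 (0.83, adjusted p = 0.0138). The adjusted p reached 0.159 in the others. The median of the list was 0.07 in DSS against Control and -0.13 in GsMTx4 against DSS. The scaffold gene Wwc2 had a fold change of -0.23 (adjusted p = 0.588) in GsMTx4 against Control. The number of the list passing in DSS against Control was 2 without DSS 2 (alone or with GsMTx4 3) and with median-of-ratios scaling or quantile normalization, and 3 without GsMTx4 3 and with the compared groups only. In GsMTx4 against DSS it was 1 with no filter, with a mean FPKM of at least 5 and with the compared groups only.

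Of 19 cortical, junctional and cadherin regulators, 17 were tested, and Amot was the 1 that passed. Over all tested genes, 17.1% passed in DSS against Control and 12.3% in GsMTx4 against DSS. Amot encodes the founding angiomotin, a relative of Amotl2. It was at 3.53, 3.39 and 3.57 FPKM in Control, 1.29, 0.782 and 1.20 in DSS, and 2.16, 3.49 and 1.81 in GsMTx4, with DSS below both other groups. It fell in DSS against Control (-1.11 ± 0.19, adjusted p = 0.00615), which held in all 18 alternative settings in which it was tested. It rose in GsMTx4 against DSS (0.72 ± 0.19, adjusted p = 0.0403), a call that held without GsMTx4 3 and ended without any other 1 library (adjusted p = 0.0527 to 0.108), and also with no filter, TPM rescaling, the compared groups only, the replicate block and without both DSS 2 and GsMTx4 3 (adjusted p = 0.0979, 0.0742, 0.118, 0.0865 and 0.0518). The third angiomotin gene, Amotl1, named here after its values were seen, was at 1.97 to 3.06 in Control, 1.85 to 4.68 in DSS and 1.17 to 2.48 in GsMTx4, with overlap between all groups. Scrib, a polarity gene, had a fold change of -0.67 in DSS against Control (adjusted p = 0.0956). Over the 9 fits that left out 1 library its adjusted p was 0.0498 (without GsMTx4 3) to 0.25, and 1 passed. The polarity gene Pard3 had a fold change of 0.36 (adjusted p = 0.134) in GsMTx4 against DSS. The number of the list passing in DSS against Control was 2 without DSS 1, and 3 without GsMTx4 3, without both DSS 2 and GsMTx4 3, and with the compared groups only.

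Of 8 TEAD cofactors and partners, 7 were tested, and Vgll4 was the 1 that passed, where 17.1% of all tested genes passed in DSS against Control and 12.3% in GsMTx4 against DSS. Vgll4 encodes a repressor that competes with YAP for TEAD. Vgll4 was at 10.2, 9.44 and 9.90 FPKM in Control, 4.75, 3.99 and 5.0 in DSS, and 6.87, 8.89 and 8.72 in GsMTx4, so that every DSS library was below every other library. It fell in DSS against Control (-0.96 ± 0.13, adjusted p = 0.00289) and rose in GsMTx4 against DSS (0.71 ± 0.13, adjusted p = 0.0127). The first call held in all 19 alternative settings. The second ended without GsMTx4 2 (0.65, adjusted p = 0.0502) and with the compared groups only (adjusted p = 0.0603). In GsMTx4 against Control its fold change was -0.25 (adjusted p = 0.569).

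Of 20 genes described as YAP and TAZ targets in other cells, 17 were tested: 3 rose in DSS against Control (Gadd45b, Asap1 and Axl) and 1 fell in GsMTx4 against DSS (Gadd45b). Of all tested genes, 6.41% rose in the first comparison and 5.62% fell in the second. Gadd45b, a stress-induced growth-arrest gene, was at 11.7, 11.7 and 14.4 FPKM in Control, 22.8, 25.8 and 27.1 in DSS, and 12.7, 12.1 and 16.0 in GsMTx4. Its fold changes were 0.95 ± 0.15 (adjusted p = 0.0045) and -0.85 ± 0.15 (adjusted p = 0.00955), and both calls held in all 19 alternative settings. Axl, a receptor kinase, was at 13.6 ± 2.04 FPKM (SD, n = 3) in Control, 21.9 ± 5.34 in DSS and 13.9 ± 1.35 in GsMTx4. Its call in DSS against Control (0.63 ± 0.18, adjusted p = 0.0454) held without DSS 1 or GsMTx4 3 and ended without any other 1 library (adjusted p = 0.055 to 0.145). Asap1, a regulator of ARF GTPases, had a fold change of 0.60 ± 0.16 (adjusted p = 0.0313), a call that ended without Control 1, 2 or 3 or DSS 1 (adjusted p = 0.105, 0.0938, 0.0747 and 0.0848). The list's number passing was 1 without any 1 Control library, and also 1 with no filter on low values, with TPM rescaling and with the replicate block, where the calls of Axl and Asap1 both ended.

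The matricellular gene Ccn2, the most used YAP and TEAD target, had the opposite sign to Gadd45b. It was at 11.5, 10.9 and 10.8 FPKM in Control, 2.63, 3.35 and 9.42 in DSS, and 4.73, 3.86 and 9.96 in GsMTx4. All Control libraries were above all libraries of the injured groups, in each of which replicate 3 was near Control. Its fold change was -1.14 ± 0.40 (adjusted p = 0.0798) in DSS against Control and 0.30 (adjusted p = 0.658) in GsMTx4 against DSS. The median of the list was 0.11 in DSS against Control and -0.25 in GsMTx4 against DSS. The number passing in GsMTx4 against DSS was 2 without GsMTx4 1 and with median-of-ratios scaling.

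Of 12 genes described with YAP activity during intestinal repair, 10 were tested: 7 rose in DSS against Control and 5 fell in GsMTx4 against DSS. Over all tested genes, 6.41% rose in the first comparison and 5.62% fell in the second. The list was chosen with earlier results of these data known, so its counts are not independent support for YAP activity. The median fold change of the list was 1.65 in DSS against Control and -1.27 in GsMTx4 against DSS, against -0.17 and 0.07 over all tested genes. Ereg, a ligand of the EGF receptor, was at 1.34, 1.76 and 1.35 FPKM in Control, 18.2, 15.1 and 20.2 in DSS, and 2.97, 1.66 and 0.989 in GsMTx4. The fold changes were 2.92 ± 0.24 (adjusted p = 0.000471) and -2.76 ± 0.24 (adjusted p = 0.000846). Plaur, the urokinase receptor, averaged 1.61 in Control, 11.4 in DSS and 2.72 in GsMTx4 (fold changes 2.21 and -1.70, adjusted p = 0.000663 and 0.00269). The EGF receptor ligand Areg averaged 14.4, 39.8 and 12.4 (1.37 and -1.58, adjusted p = 0.00487 and 0.00418). These 3 genes kept both calls in all 19 alternative settings.

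Anxa1, an annexin of epithelial and myeloid cells, averaged 49.7, 142 and 80.5 FPKM in Control, DSS and GsMTx4. It rose in DSS against Control (1.49 ± 0.20, adjusted p = 0.00255) and fell in GsMTx4 against DSS (-0.79 ± 0.20, adjusted p = 0.0364). The cytokine gene Il33 was at 2.72, 6.44 and 17.0 in DSS and 1.45 to 1.65 in GsMTx4, and fell by 1.65 ± 0.45 (fold change -1.65, adjusted p = 0.045). The fall of Anxa1 held without Control 1 or DSS 1 and ended without any other 1 library (adjusted p = 0.0515 to 0.123). That of Il33 held without DSS 1 and ended without any other 1 library (adjusted p = 0.0547 to 0.116), with a fold change of -1.06 without DSS 3. The list's number of falling genes was 3 without Control 2, Control 3, DSS 2, DSS 3, GsMTx4 2 or GsMTx4 3, and without both DSS 2 and GsMTx4 3. The calls of Anxa1 and Il33 also both ended with no filter, with the compared groups only and with the replicate block. Several of these genes are also expressed by leukocytes and stroma, the marker sums of which are given above, and their part in these values was not tested.

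**Figure D5:**
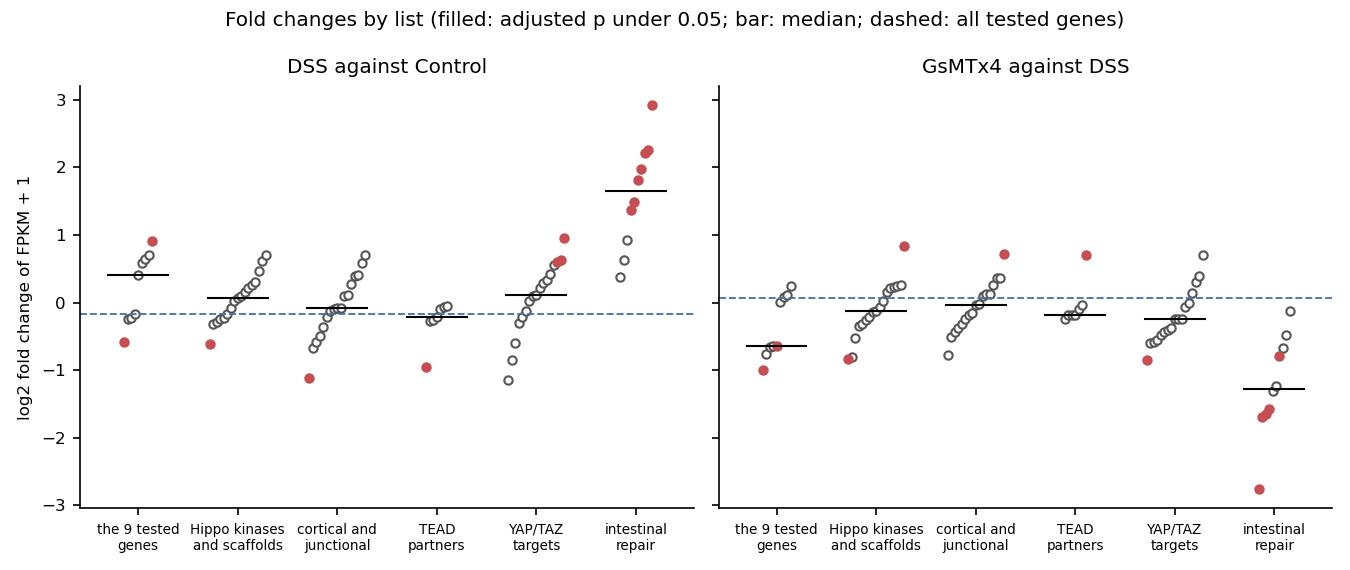
Fold changes on the log2(FPKM + 1) scale (vertical axis) of the 9 tested genes and of the 5 lists in DSS against Control and in GsMTx4 against DSS; each point is a gene, filled where its adjusted p was under 0.05, bars are list medians and the dashed line is the median of all tested genes. The repair list has medians of 1.65 and -1.27, and the other 4 lists lie between -0.25 and 0.11. All lists were chosen with earlier results of these data known.

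The genes most like each passing member were found by the root mean square difference of log2(FPKM + 1) profiles, each centred on its own mean, over the 9 libraries and 12476 genes with a regular symbol. Nearest to Lats2 were Spns2 (0.076), a transporter of sphingosine 1-phosphate known from endothelium, Ehd3 (0.092) and Tmem123 (0.099), where the own root mean square of Lats2 was 0.417. Spns2 averaged 1.46, 3.74 and 1.96 FPKM in Control, DSS and GsMTx4. Nearest to Amotl2 (own value 0.52) were the laminin gene Lama4 (0.135), the collagen hydroxylase gene P3h3 (0.142) and the collagen gene Col5a2 (0.162). Lama4 averaged 2.22, 4.60 and 2.07. Nearest to Tead2 (own value 0.275) were Lrfn3 (0.09), Zfp820 (0.093) and Wls (0.094), which carries Wnt ligands to the cell surface and averaged 13.8, 8.88 and 11.1. These likenesses describe 9 libraries and were not tested.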

How the data were processed

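RNA-seq of colon was analysed in 9 libraries, 3 each of Control, DSS and GsMTx4, grouped by sample title. The values the authors deposited are FPKM, in 1 table. The submitters' processing notes name cutadapt, FastQC and the build GRCm38. Which aligner and which FPKM program they used is not given in the sources used here. Symbols and positions came from GENCODE annotation of GRCm38 and matched 35196 of 35315 identifiers. FPKM are not counts, so limma 3.58.1 (R 4.3.3) was fitted with an intensity trend to log2(FPKM + 1) of all 9 libraries, with 1 mean per group, two-sided tests, and Benjamini-Hochberg adjustment over the genes tested. Confidence intervals are at 95%. Tested genes reached an FPKM of 1 in 3 or more libraries. The fit was checked on simulated data. Python 3.11.15 and matplotlib 3.10.9 made the tables and figures.

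All 10 genes were named whatever their p. From each list, every passing gene was named where at most 5 passed in a comparison, otherwise the 4 with the smallest p, and the 2 with the smallest p whatever the call. Of the genes this rule names, 1 is not reported here. Members and lists were chosen with earlier results of these data known. Alternatives used a pseudocount of 0.1 or 0.01, all genes without a low-value filter, a mean FPKM of at least 5, 3 other scalings, the compared groups alone, a replicate block, and leaving out each library. Leaving out DSS 2 and GsMTx4 3 together was chosen after seeing the data. Relative depth was read from the most common ratio of the lowest FPKM values between libraries. Protein sequences were not analysed here.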

Additional observations from a re-analysis of the deposited data

How the results depend on the processing

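The 2 members passing in DSS against Control became 1 with pseudocount 0.1 or 0.01, no filter on low values, median-of-ratios scaling, quantile normalization, the replicate block, or without both DSS 2 and GsMTx4 3, and 0 with a mean FPKM of at least 5, where Yap1 and Lats1 alone were tested. Leaving out single libraries gave 1 to 3. The 2 in GsMTx4 against DSS became 1 with pseudocount 0.01 or without both libraries, 0 with no filter, a mean of at least 5, TPM rescaling, the compared groups only or the replicate block, and 0 to 2 without single libraries. In GsMTx4 against Control 0 passed under every setting run. Of all tested genes, the 2462 passing in DSS against Control became 1571 with a mean of at least 5 and 963 to 3101 without single libraries. The 1763 in GsMTx4 against DSS became 1073 with no filter, 587 with the compared groups only, 1078 with the replicate block and 716 to 1977 without single libraries. The 34 in GsMTx4 against Control became 21 and 4 with pseudocounts 0.1 and 0.01, 5 with a mean of at least 5, 77 without both libraries and 13 to 83 without single libraries. The causes were not tested. Among fold changes that never passed, the sign in GsMTx4 against DSS turned for Yap1 (-0.04 with median-of-ratios, -0.03 with quantile normalization, -0.10 to 0.17 without single libraries), Ajuba (-0.02 without both libraries, -0.05 to 0.21 without single ones) and Lats1 (-0.05 to 0.34). In GsMTx4 against Control it turned for Tead4 (0.01 with median-of-ratios, 0.05 with quantile normalization, 0.16 without both, -0.22 to 0.16 without single libraries), Lats1 (0.10 without both, -0.30 to 0.10) and Tead1 (-0.54 to 0.19). No pairing by replicate number was seen: deviations of same-numbered libraries correlated at -0.233 to 0.1. Those of other pairs correlated at -0.187 to 0.311, the highest for DSS 2 and GsMTx4 3, which share low values for long transcripts. With 3 libraries a group this cannot exclude pairing, and the block says nothing of weaker effects. The depth is unknown, which limits what low values such as those of Ankrd1 can show.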
